A study of Mus musculus with 4 samples.

Results

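Osteoclast differentiation and effector genes were examined in cultured periosteal cells of the mouse. The 7 genes were chosen by symbol, namely *Acp5*, *Oscar*, *Ocstamp*, *Dcstamp*, *Atp6v0d2*, *Calcr* and *Nfatc1*, and all 7 were found among the 45802 symbols of the deposited table. Cells came from the femurs and tibias of male Pdgfrα-mTmG mice given tamoxifen at 2 months of age (150 mg/kg daily, 5 d), and the bones were taken 14 d after the last dose. The labels give an age of 9 to 10 weeks for the mice that yielded the cells. In these mice, CreER driven by the *Pdgfra* promoter switches a cell and its progeny from membrane tdTomato to membrane GFP, and cells that did not recombine keep tdTomato whether or not they express *Pdgfra*. After 1 passage with 10 ng/mL basic FGF, CD31-CD45-Ter119- cells were sorted into PDGFRα reporter+ (GFP) and PDGFRα reporter- (tdTomato) populations, and 2 libraries of total RNA were made from each. Each population was pooled from 3 to 6 mice per the labels, whereas the study's methods give a larger number, so that values do not belong to single animals. The headings of the table number the libraries of each population 2 and 3, and what the number stands for was not stated.

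The osteoclast is the cell that resorbs bone. It forms when precursors of the monocyte and macrophage lineage receive CSF1 and RANKL, largely from cells of the mesenchymal lineage, and fuse into a multinucleated cell. NFATc1 is the master transcription factor of this process, OSCAR is an immunoreceptor that delivers its co-stimulatory signal, DC-STAMP and OC-STAMP are membrane proteins needed for fusion, the d2 subunit of the vacuolar ATPase serves fusion and acid secretion, TRAP (the product of *Acp5*) is the acid phosphatase by which osteoclasts are stained, and the calcitonin receptor is the receptor through which calcitonin halts resorption. The sort removed cells with CD45, which osteoclast precursors carry.

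Per GENCODE M21 on GRCm38, the build named in the submitters' processing notes, all 7 genes are protein coding. *Acp5* lies on chromosome 9 from 22126727 to 22135711, *Oscar* on chromosome 7 from 3609813 to 3616157, *Ocstamp* on chromosome 2 from 165393760 to 165400405, *Atp6v0d2* on chromosome 4 from 19876841 to 19922605 and *Calcr* on chromosome 6 from 3685680 to 3764714, each on the minus strand. *Dcstamp* lies on the plus strand of chromosome 15 from 39745930 to 39760938. *Acp5* is overlapped on the other strand by the noncoding gene *6530413G14Rik*, which was not analysed here. The libraries were stranded, but whether reads were assigned by strand was not stated.

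RefSeq promoter windows (GRCm38.p6) were matched for 3 of the 7 genes, with 3 start sites for *Acp5*, 2 for *Calcr* and 1 for *Oscar*. The 250 bases before a start are shown for the most downstream start of *Acp5*, because this gene had the largest difference between the populations and this window held the most matches of the 3, and for *Oscar*, because this co-stimulatory receptor differed little. The *Acp5* window spans chr9:22130599-22130848 on the minus strand, inside the gene, with 10 of its bases in an annotated exon. The *Oscar* window spans chr7:3616158-3616407 on the minus strand, upstream of the gene. Capitals mark matches, on either strand, to the core of NFAT sites (GGAAA) or to the M-box read by MITF (TCATGTG).
Acp5: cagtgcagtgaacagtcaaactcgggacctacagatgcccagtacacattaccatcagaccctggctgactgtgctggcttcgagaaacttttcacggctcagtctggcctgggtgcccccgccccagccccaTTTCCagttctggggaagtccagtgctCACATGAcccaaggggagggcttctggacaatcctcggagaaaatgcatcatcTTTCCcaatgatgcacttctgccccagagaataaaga
Oscar: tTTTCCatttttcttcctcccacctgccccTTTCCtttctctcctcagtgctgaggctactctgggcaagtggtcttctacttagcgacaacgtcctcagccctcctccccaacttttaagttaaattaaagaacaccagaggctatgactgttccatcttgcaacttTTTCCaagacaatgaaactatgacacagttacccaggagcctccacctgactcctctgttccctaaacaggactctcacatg
The *Acp5* window held 2 NFAT cores, whose first bases lay 117 and 37 bases before the start, and 1 M-box, 90 bases before the start, whereas the other 2 *Acp5* windows held 1 NFAT core each and no M-box. The *Oscar* window held 3 NFAT cores and no M-box. Neither window, nor any of the other 4, held the AP-1 motif TGANTCA. Of the 32851 windows of this length, 55.6% held GGAAA, 3.25% TCATGTG and 6.75% TGANTCA, so that the NFAT core was common. *Mitf* itself had log2 values of 2.15 and 1.75 in reporter+ and 2.26 and 1.60 in reporter- libraries 2 and 3.

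Values are log2 expression after the authors' quantile normalization, which gave every library the same median (1.48) within rounding. The unit under the logarithm was not stated, so that levels were compared between libraries for 1 gene at a time, and the depth was unknown. Where genes are ranked by their mean or summed over a list, this is done on the deposited values, and as their scaling by gene length is unknown, such ranks, and which genes dominate a sum, hold for these values only and not for transcript numbers. Of the 7 genes, 6 had a value in all 4 libraries. *Calcr* was blank, that is without signal, in reporter- library 3.

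*Acp5* encodes the phosphatase TRAP. Its log2 values were 1.31 in reporter+ library 2, 1.95 in reporter+ library 3, 0.87 in reporter- library 2 and -0.52 in reporter- library 3. Both reporter+ libraries lay above both reporter- libraries, with reporter- library 3 lowest. The mean was 1.63 ± 0.46 (SD, n = 2) in reporter+ and 0.17 ± 0.98 (SD, n = 2) in reporter- cells. The log2 fold change, 1.46 (SE 0.56), did not pass the test (limma, unadjusted p = 0.0533, adjusted p = 1). Within library number 2 the difference was 0.44, and within number 3 it was 2.48 (5.57-fold on the linear scale). Without reporter- library 3 the log2 fold change was 0.76.

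*Dcstamp*, the fusion receptor-like protein, had log2 values of -2.43 and -0.56 in reporter+ libraries 2 and 3 and of -2.53 and -2.94 in reporter- libraries 2 and 3. The populations did not overlap, but reporter+ library 3 alone stood well above the other 3 libraries. Its log2 fold change of 1.24 (SE 0.77) did not pass the test (limma, adjusted p = 1). Within number 2 the populations differed by 0.10, and within number 3 by 2.38 (5.20-fold), and without reporter+ library 3 the log2 fold change was 0.31.

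*Ocstamp*, its relative in fusion, had log2 values of -4.21 and -1.65 in reporter+ and -3.36 and -4.05 in reporter- libraries 2 and 3. Here the populations overlapped, since reporter+ library 2 was the lowest of all 4 and reporter+ library 3 the highest. The log2 fold change of 0.78 (SE 1.02) did not pass the test (limma, adjusted p = 1) and was smaller than the spread between the reporter+ libraries (SD 1.81). It was -0.85 within number 2 and 2.40 within number 3 (5.29-fold), and -0.50 without reporter+ library 3.

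*Atp6v0d2*, the proton pump subunit of osteoclasts, had log2 values of -1.71 and -0.75 in reporter+ and -1.83 and -2.51 in reporter- libraries 2 and 3. The populations did not overlap, with reporter+ library 3 highest and reporter- library 3 lowest. The log2 fold change was 0.95 (SE 0.56; limma, adjusted p = 1), made up of 0.13 within number 2 and 1.76 within number 3 (3.40-fold). It was 0.47 without reporter+ library 3 and 0.61 without reporter- library 3.

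*Oscar*, the co-stimulatory receptor, had log2 values of -2.88 and -2.09 in reporter+ and -2.46 and -2.64 in reporter- libraries 2 and 3. Both reporter- libraries lay between the reporter+ libraries. The log2 fold change was 0.07 (SE 0.53; limma, adjusted p = 1), with -0.42 within number 2 and 0.56 within number 3. From highest to lowest, the libraries stood in the same order for *Oscar* and *Ocstamp*, namely reporter+ 3, reporter- 2, reporter- 3 and reporter+ 2. The log2 fold change of *Oscar* was -0.33 without reporter+ library 3.

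*Calcr*, the calcitonin receptor gene, had log2 values of -4.72 and -5.41 in reporter+ libraries 2 and 3 and of -4.79 in reporter- library 2. The libraries numbered 2 differed by 0.07. Over all libraries the sign depended on the blank, with a log2 fold change of -0.27 when it was left missing and 2.37 when it was set to the lowest value of the table (limma, adjusted p = 1 for both).

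*Nfatc1*, the transcription factor, had log2 values of 1.70 and 0.35 in reporter+ and 1.86 and 0.27 in reporter- libraries 2 and 3. The populations overlapped fully, whereas both libraries numbered 3 lay below both libraries numbered 2. The log2 fold change between the populations was -0.04 (SE 0.73; limma, adjusted p = 1). This SE includes the difference between the library numbers, and it was 0.19 in a fit with the library number as a block. The log2 fold change was 0.63 without reporter+ library 3 and 0.75 without reporter- library 2. The gene lies on the minus strand of chromosome 18 from 80606205 to 80713071, overlapped on the other strand by *AC123818.1*, which was not analysed here.

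**Figure D1:**
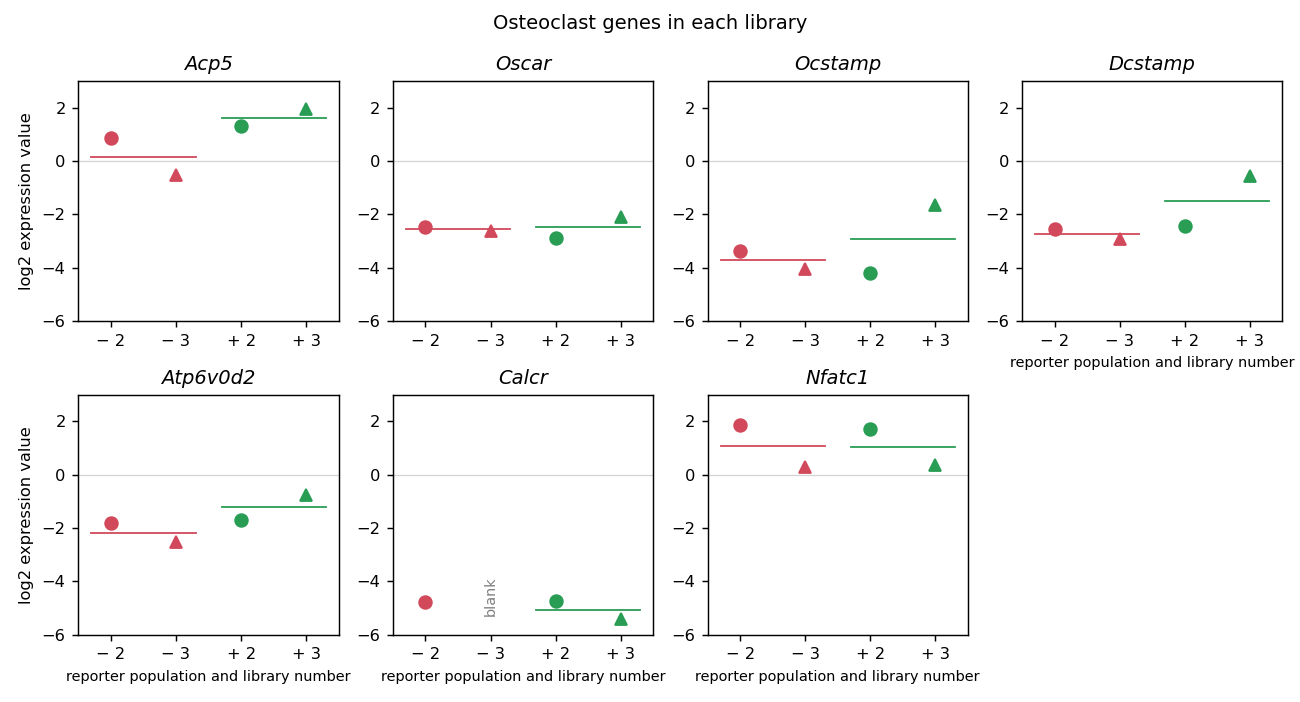
Log2 expression value (y axis) of the 7 genes in each library, with the reporter population (- or +) and the library number on the x axis; circles are libraries numbered 2, triangles those numbered 3, and lines the means of 2 libraries. *Acp5*, *Dcstamp* and *Atp6v0d2* show both reporter+ libraries above both reporter- libraries, *Nfatc1* follows the library number, and *Calcr* is blank in 1 library.

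In the comparison of the populations, 0 of the 6 genes with 4 values passed an adjusted p of 0.05 (limma), beside 0% of the 14415 genes tested. At an unadjusted p under 0.05 there were also 0 of the 6, beside 0.909% of all genes. With the library number as a block, 2 of the 6 (*Acp5* and *Dcstamp*) had an unadjusted p under 0.05 (limma), beside 913 of all genes. In that fit 0 of the 6 passed an adjusted p of 0.05, beside 29 of all genes. With 2 libraries against 2, the smallest p of an exact two-sided permutation test is 0.333. Both reporter+ libraries lay above both reporter- libraries for 3 of the 6 (*Acp5*, *Dcstamp* and *Atp6v0d2*), beside 7.59% of all genes tested. Such genes are by definition also higher in reporter+ cells within both library numbers. Only the same 3 were so, beside 22.1% of all genes tested. The median log2 fold change of the 6 genes was 0.86 over all libraries, beside 0.00 over all genes tested. With a pseudocount of 1 on the linear scale, which lowers the fold changes of genes with low values, the median was 0.18. Single genes then had log2 fold changes of 0.91 for *Acp5*, 0.29 for *Dcstamp*, 0.23 for *Atp6v0d2*, 0.13 for *Ocstamp* and 0.02 for *Oscar*, so that the folds given above depend on this choice. The median was 0.39 without reporter+ library 3, 0.52 without reporter- library 3 and 1.60 without reporter+ library 2. It was -0.03 within number 2 and 2.07 within number 3, beside 0.00 and -0.02 over all genes, and each of these within-number values compares 1 library with 1 library. The median within number 3 was 0.38 with a pseudocount of 1 and 1.28 over *Acp5* and *Nfatc1*, the 2 genes with means above 0. In sorted bulk cells, a larger share of osteoclast-lineage cells and more RNA of these genes per cell cannot be told apart.

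**Figure D2:**
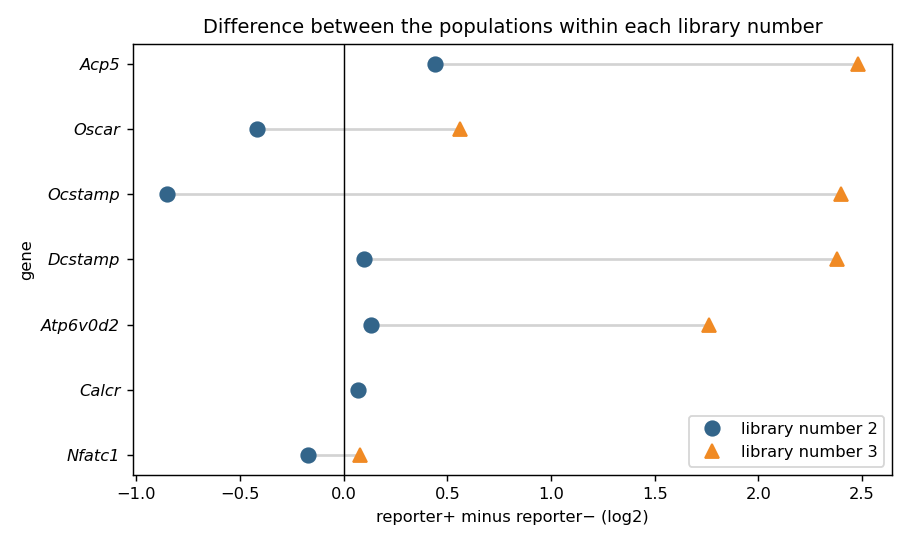
Difference between PDGFRα reporter+ and PDGFRα reporter- cells (log2, x axis) for each gene (y axis), within library number 2 (circles) and within library number 3 (triangles), each from 1 library against 1. *Acp5*, *Ocstamp*, *Dcstamp* and *Atp6v0d2* differ by 1.76 to 2.48 within number 3 and by -0.85 to 0.44 within number 2, and *Calcr* has no value for number 3.

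The library numbers were then compared, with the population as a covariate. *Nfatc1* was lower in the libraries numbered 3 by a log2 difference of -1.47 (SE 0.19; limma, adjusted p = 0.000996), with -1.35 in reporter+ and -1.59 in reporter- cells. It was the only 1 of the 6 genes to pass, beside 21.3% of all genes tested, and its adjusted p was 0.0624 when the variance was moderated without a trend. The AP-1 gene *Fos*, whose product partners with NFATc1, had values of 2.57 and 1.13 in reporter+ and 2.98 and 0.97 in reporter- libraries 2 and 3, in the same order as *Nfatc1*. The other 5 genes went opposite ways in the populations. From number 2 to number 3, their values differed by 0.64 (*Acp5*), 0.79 (*Oscar*), 0.96 (*Atp6v0d2*), 1.87 (*Dcstamp*) and 2.56 (*Ocstamp*) in reporter+ cells. In reporter- cells the corresponding differences were -1.39, -0.18, -0.68, -0.41 and -0.69. Number 3 was above number 2 in reporter+ and below it in reporter- cells for 5 of 6 genes, beside 12.9% of all genes tested. This difference of differences was not tested, because 4 libraries leave no residual degree of freedom for it.

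Markers of macrophages, the lineage from which osteoclasts form, were present in both populations and had another pattern. Of 24 macrophage markers, 22 had values in all libraries, of which 22 had a higher mean in reporter+ cells, 20 were higher within both library numbers, beside 22.1% of all genes tested, and 0 passed the test. An unadjusted p under 0.05 was found for 5, beside 0.909% of all genes. Their median was 0.96 on the log2 scale. The median difference was 1.23 within number 2 and 0.72 within number 3, the reverse of the order in the osteoclast genes. The summed level of the list on the linear scale was 259 and 309 in reporter+ and 104 and 198 in reporter- libraries 2 and 3. *Lyz2* had the most weight in each sum on this scale, and without it the sums were 58.5 and 74.0 in reporter+ and 26.7 and 45.6 in reporter- libraries. In reporter- cells, 20 of the 22 markers were higher in library 3 than in library 2, beside 7840 of the 14415 genes tested. All 6 osteoclast genes with 4 values were lower there, beside 6574 of the 14415 genes tested. *Ptprc*, the gene of CD45, had values of -1.28 and -0.39 in reporter+ and -2.30 and -1.22 in reporter- libraries. The part of macrophages in the population differences was not tested.

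**Figure D3:**
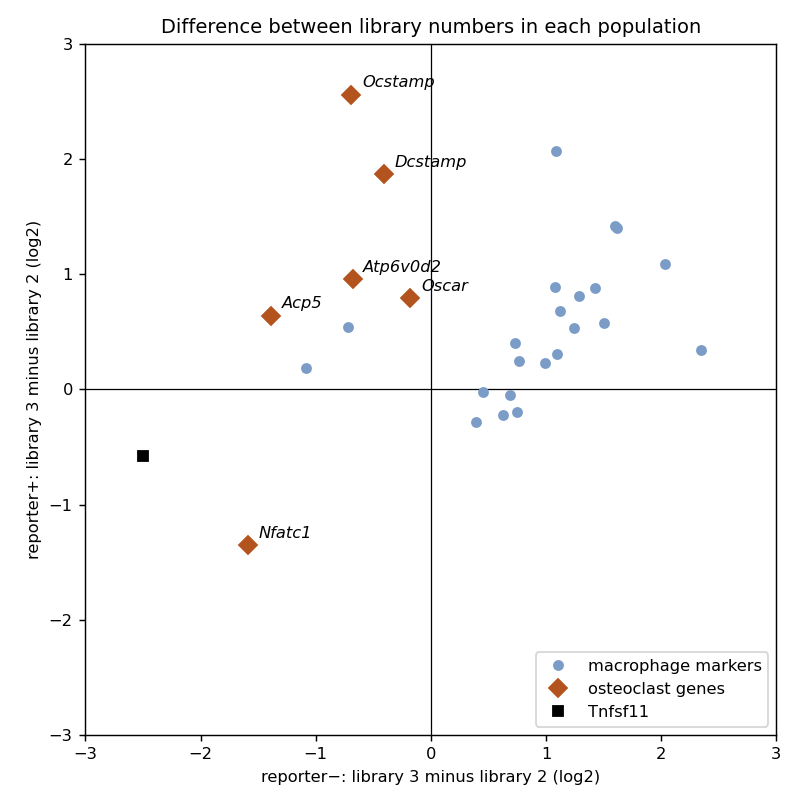
Difference between library 3 and library 2 (log2) in PDGFRα reporter- cells (x axis) and in PDGFRα reporter+ cells (y axis); diamonds are the 6 osteoclast genes with 4 values, circles the 22 macrophage markers with 4 values, and the square is *Tnfsf11*. The 5 osteoclast genes other than *Nfatc1* lie in the upper left, most macrophage markers lie on the right, and *Nfatc1* and *Tnfsf11* lie at the lower left.

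Among the signals that induce osteoclasts, *Tnfsf11*, the gene of RANKL, had log2 values of 5.20 and 4.61 in reporter+ and 4.89 and 2.40 in reporter- libraries 2 and 3. Reporter- library 3, the lowest of the 4 for *Acp5*, *Dcstamp*, *Atp6v0d2* and *Nfatc1*, was also the lowest for *Tnfsf11*. In contrast, *Ocstamp* and *Oscar* were lowest in reporter+ library 2, where *Tnfsf11* was highest. Reporter+ library 3 was the highest for *Acp5*, *Oscar*, *Ocstamp*, *Dcstamp* and *Atp6v0d2*, whereas *Tnfsf11* was lower there than in both libraries numbered 2. The relation was not tested. The log2 fold change of *Tnfsf11* was 1.26 (SE 0.87; limma, adjusted p = 1), with 0.30 within number 2 and 2.22 within number 3. It was 0.01 without reporter- library 3. *Tnfrsf11a*, the gene of the RANKL receptor RANK, had values of -2.49 and -1.85 in reporter+ and -2.90 and -2.54 in reporter- libraries, and *Csf1r*, the CSF1 receptor gene, 1.08 and 1.60 against -0.11 and 1.13. *Csf1* had 6.75 and 6.77 in reporter+ and 6.90 and 7.64 in reporter- libraries, so that it was lower in both reporter+ libraries. Of the 10 genes of this list, 7 had a higher and 3 a lower mean in reporter+ cells. Their median was 0.20 and 0 passed the test.

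The immunoreceptor co-stimulation list, the pathway of *Oscar*, had 14 of 16 genes with 4 values. All 14 were higher in reporter+ cells within both library numbers, beside 22.1% of all genes tested. Their median was 0.66, and 0 passed the test. With the library number as a block, where 29 of the 14415 genes tested passed, *Tyrobp* passed (log2 fold change 1.00, limma adjusted p = 0.0437). The largest values were those of the inhibitory receptor genes *Pirb* (1.57, SE 0.78) and *Lilrb4a* (1.37, SE 0.73). Without reporter- library 2 they were 0.64 and 0.39, and without reporter- library 3 they were 2.50 and 2.34. With a pseudocount of 1 they were 0.76 and 0.98. The members with the highest mean were *Tyrobp*, the gene of the adaptor DAP12, with 3.05 and 3.45 in reporter+ and 1.88 and 2.61 in reporter- libraries, and *Trem2*, a receptor that signals through it, with 4.12 and 2.47 against 3.30 and 2.07. Many genes of this list are used by macrophages in general. The median difference of the list was 0.94 within number 2 and 0.67 within number 3, beside 1.23 and 0.72 for the macrophage markers and -0.03 and 2.07 for the osteoclast genes, the last of which was 0.38 with a pseudocount of 1.

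Of the 24 transcription factors that act beside *Nfatc1*, 12 had a higher and 12 a lower mean in reporter+ cells, with a median of 0.00 and 0 past the test. *Spi1*, the gene of the myeloid factor PU.1 (1.18, SE 0.79), and *Prdm1*, the gene of the repressor BLIMP1 (1.05, SE 0.75), had the largest log2 fold changes. *Spi1* was 0.38 without reporter- library 2 and 0.47 without reporter+ library 3, and *Prdm1* was 0.41 without reporter- library 3. With a pseudocount of 1 *Spi1* was 0.43 and *Prdm1*, whose values were low, 0.03. *Prdm1* had values of -4.60 and -4.31 in reporter+ and -4.86 and -6.14 in reporter- libraries, lowest in reporter- library 3. *Fosl2* and *Junb*, AP-1 members, had the highest means and log2 values between 5.09 and 6.30 in the 4 libraries. Of 9 calcineurin subunits and regulators, which act on NFAT proteins, 4 were higher and 5 lower, with a median of -0.01. *Ppp3ca*, a catalytic subunit, had 0.35 (SE 0.19) and *Rcan2*, a regulator, had -0.20 (SE 0.66), while *Chp1* had the highest mean, with values from 5.45 to 5.70.

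Of 15 genes for cell fusion, the step of *Dcstamp* and *Ocstamp*, 7 were higher and 8 lower, with a median of -0.02 and 0 past the test. *Adam8* had 0.38 (SE 0.84) and *Adam12* -0.36 (SE 0.31), and the tetraspanin genes *Cd81* and *Cd9* had the highest means, with values from 5.33 to 7.91. Of 20 other subunits of the vacuolar ATPase, 13 were higher and 7 lower, with a median of 0.05 and a range of -0.11 to 0.38. The largest values were those of *Atp6v0a4* (0.38, SE 0.69; 0.02 with a pseudocount of 1) and *Atp6v1h* (0.21, SE 0.18), and *Atp6v0c* and *Atp6ap1* had the highest means. *Atp6v0d1*, which encodes the d subunit used in most tissues, had values of 4.41 and 4.38 in reporter+ and 4.42 and 4.42 in reporter- libraries. It varied over the libraries by far less than *Atp6v0d2* on the log2 scale. *Atp6v0d2* had low values, from -2.51 to -0.75, and its log2 fold change was 0.23 with a pseudocount of 1, so that their spreads are not directly comparable.

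Of 16 resorption genes, the step of *Acp5*, 7 were higher and 9 lower, with a median of -0.01 and 0 past the test. An unadjusted p under 0.05 (limma) was found for 2, *Mmp9* and *Ctsk*, beside 0.909% of all genes. *Mmp9*, a gelatinase of osteoclasts and other myeloid cells, had the largest log2 fold change (1.75, SE 0.37; limma, unadjusted p = 0.00719, adjusted p = 1), with values of 3.21 and 3.89 in reporter+ and 2.18 and 1.41 in reporter- libraries. *Ctsk*, the gene of cathepsin K, had 0.39 (SE 0.13, limma, unadjusted p = 0.0372), with 4.38 and 4.42 against 4.05 and 3.97. The study describes *Ctsk* as high in both sorted populations, and which cells expressed it was not tested. *Itgb3*, the gene of the integrin subunit by which osteoclasts attach to bone, had -0.58 (SE 0.46), with 0.98 and 0.11 against 1.52 and 0.72. *Mmp14* and *Rab7* had the highest means, with values from 4.90 to 6.40. Of 8 partners and relatives of *Calcr*, 3 were higher and 5 lower, with a median of -0.06. *Ramp1*, an accessory protein of this receptor, had -0.94 (SE 1.20; -0.03 with a pseudocount of 1) and *Calcrl*, its nearest relative, 0.43 (SE 0.45), and *Gnas* and *Adcy6* had the highest means.

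**Figure D4:**
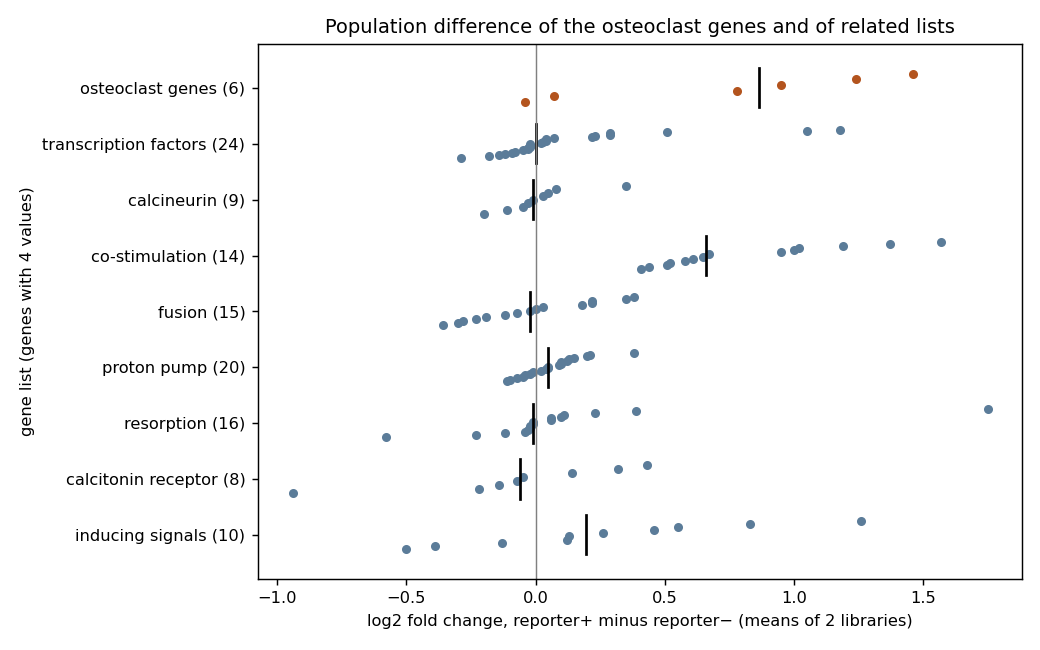
Log2 fold change between PDGFRα reporter+ and PDGFRα reporter- cells (x axis, means of 2 libraries) for each gene of the osteoclast genes and of 8 related lists (y axis, number of genes with 4 values in parentheses); vertical bars are medians. The medians of the osteoclast genes (0.86) and of the co-stimulation list (0.66) lie to the right of 0, *Nfatc1* lies just left of it (-0.04), and the other lists have medians between -0.06 and 0.20.

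As a description over 4 libraries, the genes whose values, centred on their own mean, lay nearest to each osteoclast gene were found among the 10224 genes whose mean over the libraries was 0 or more. For *Acp5* they were *Mmp9* (Euclidean distance 0.529), *Lum* (0.649) and *Chl1* (0.659). For *Dcstamp* they were *Pi15* (0.635), *Dcn* (0.644) and *Cxcl14* (0.692), and for *Ocstamp* *Pi15* (0.471), *Il20ra* (0.762) and *Cxcl14* (0.876). *Atp6v0d2* was nearest to *Adamts3* (0.271), *Itgb8* (0.418) and *Epyc* (0.481), and *Oscar* to *Mbnl3* (0.142), *Lig4* (0.148) and *Fstl1* (0.153). *Nfatc1* was nearest to *Uaca* (0.0876), *Zfp36* (0.102) and *Grb14* (0.133). Among the osteoclast genes themselves, *Ocstamp* and *Dcstamp* were the closest pair (0.702) and *Ocstamp* and *Nfatc1* the most distant (2.95).

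The labelled cell type was checked on marker lists. All 11 periosteal stromal markers had values in all libraries, with summed linear levels of 2300 to 3310, and *Pdgfra* had values of 7.78 and 7.62 in reporter+ and 7.87 and 7.44 in reporter- libraries. Of the 11 osteoclast markers, which include the 7 genes and *Ctsk*, 10 had 4 values, and their summed level was 38.7 and 44.6 in reporter+ and 30.3 and 22.6 in reporter- libraries 2 and 3. *Ctsk* and *Mmp9* had the most weight in it on this scale. The study reports high *Ctsk* expression in both sorted populations and describes periosteal cells marked by cathepsin K. The summed level of this list is thus not a measure of osteoclasts alone, and which cells expressed *Ctsk* was not tested. The 7 genes alone summed to 6.44 and 7.0 in reporter+ and 6.23 and 2.43 in reporter- libraries. Of 7 erythroid, 5 B cell and 5 T cell markers, 1, 0 and 1 had values in all libraries, with summed levels of at most 0.171. Endothelial markers (8, of which 7 had 4 values) had summed levels of 2.64 and 3.21 in reporter+ and 3.19 and 6.30 in reporter- libraries. Their median log2 fold change was -1.82, and 4 lay lower in both reporter+ than in both reporter- libraries (4 of 7, beside 8.1% of all genes tested), each with an unadjusted p under 0.05 and an adjusted p of 1 (limma). These were *Cdh5* (-4.26), *Emcn* (-3.44), *Pecam1* (-3.19), the gene of the CD31 used in the sort, and *Kdr* (-1.82). Their values in reporter+ libraries were low, from -6.40 to -3.99, and their folds are not given with a pseudocount. The others with 4 values were *Tek* (-0.77), *Egfl7* (-0.04) and *Vwf* (0.09). *Egfl7* had the most weight in each endothelial sum on this scale, so that the sums mostly do not reflect the 4 genes named first. The part of endothelial cells in the results was not tested. The summed levels of osteoblast markers (7, of which 6 had 4 values) were 4.44 and 6.38 against 3.38 and 5.58. Values were listed for 15423 to 15605 genes per library.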

How the data were processed

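Total RNA of 4 libraries was sequenced by the authors as stranded paired-end Illumina libraries. The submitters' processing notes name bcl2fastq 2.17.1.14, Partek 7.0 and GRCm38.p6, and the aligner, the counting and the annotation are not given in the sources used here. The deposited log2 values had been quantile normalized by the authors, each symbol having a single value in a library or, without signal, a blank. The linear unit and the depth are unknown, so that no counting error is given. Headings show the population and the number 2 or 3, whereas the labels number replicates 1 and 2, and libraries were assigned to their population only.

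The 14415 genes with 4 values were fitted with limma 3.58.1 in R 4.3.3 (eBayes with a trend, two-sided, Benjamini-Hochberg adjustment over all genes, threshold 0.05), for the population and, with the population as a covariate, for the library number. The population fit had no term for the library number, so that its SEs include the differences between the libraries numbered 2 and 3. Nothing showed the libraries to come from separate cultures, so that p-values measure the spread between these libraries. The fit was tested on simulated data. The 7 genes, 8 related lists and 8 marker lists were chosen with earlier results of these data known. All 7 genes were named, and of each related list the 2 genes with the largest absolute log2 fold change and the 2 with the highest mean, with other list genes (*Mitf*, *Fos*, *Ptprc*, *Tnfrsf11a*, *Atp6v0d1*, *Pdgfra* and single marker genes) named after their values were seen, and for each gene the 3 nearest in pattern. Alternatives covered the block, the moderation, pseudocounts of 1 and 0.1 on the linear scale, the filter, the blanks, centring and each library left out. Summaries and plots used Python 3.11.15, pandas 2.3.3 and matplotlib 3.10.9. Sequences came from RefSeq windows, of which the 250 bases before a start were used.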

Additional observations from a re-analysis of the deposited data

Results flagged for a closer look

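The genes below stood out because their differences had opposite signs in the 2 groups compared, each with 1 library against 1, and the difference between the groups was not tested. From library 2 to library 3, *Acp5* differed by 0.64 in reporter+ and -1.39 in reporter- cells, *Oscar* by 0.79 and -0.18, *Ocstamp* by 2.56 and -0.69, *Dcstamp* by 1.87 and -0.41, and *Atp6v0d2* by 0.96 and -0.68. Between the populations, *Ocstamp* differed by 2.40 within library number 3 and -0.85 within number 2, *Oscar* by 0.56 and -0.42, and *Nfatc1* by 0.08 and -0.17.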

How the results depend on the processing

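Under the alternatives, 0 of the osteoclast genes passed an adjusted p of 0.05 in the comparison of the populations. Over all genes, 131 had an unadjusted p under 0.05 in the main fit (limma). This count was 62 when only genes with a mean of at least 0 were kept, and 273 when the variance was moderated without a trend. In each setting 0 genes passed, except that 29 passed with the library number as a replicate block, 22 higher and 7 lower in reporter+ cells. With this block, 913 genes had an unadjusted p under 0.05. Of the osteoclast genes, 2 were then under 0.05 unadjusted, *Acp5* and *Dcstamp*, with limma adjusted p of 0.309 and 0.781. The block also gave 1 call among the related lists, *Tyrobp* (log2 fold change 1.00, limma adjusted p = 0.0437). The labels do not show that libraries with 1 number belong together, and the deviations of same-numbered libraries from their population means correlated across genes (r = 0.681). With 2 libraries per population this is a single correlation, since the deviations of number 3 mirror those of number 2. In the comparison of the library numbers, 3065 genes passed, against 0 when the variance was moderated without a trend (3909 with an unadjusted p under 0.05), 1825 with a pseudocount of 1 and 1256 when the filter was dropped and blanks were set to the lowest value, which changed together (16742 genes tested). Without the trend 0 osteoclast genes passed there, since *Nfatc1* had an adjusted p of 0.0624 at the same log2 difference of -1.47. No fit of the library numbers with 1 library left out was made, as none leaves a residual degree of freedom beside the population. The median of the osteoclast genes within number 3 was 0.38 with a pseudocount of 1 and 1.28 when only *Acp5* and *Nfatc1*, the 2 with means above 0, were kept. With each library left out in turn, where the lone library is assumed to vary like the others, the median log2 fold change of the osteoclast genes ranged from 0.39 (without reporter+ library 3) to 1.60 (without reporter+ library 2). The signs changed for 8 of 23 single genes, with ranges of -0.33 to 0.47 for *Oscar*, -0.50 to 2.06 for *Ocstamp*, -0.84 to 0.75 for *Nfatc1*, -0.97 to 0.56 for *Rcan2*, -0.50 to 1.26 for *Adam8*, -0.05 to 0.81 for *Atp6v0a4*, -2.18 to 0.30 for *Ramp1* and -0.03 to 0.89 for *Calcrl*. *Acp5* was at least 0.76, *Dcstamp* at least 0.31 and *Atp6v0d2* at least 0.47 with any library left out. Of the genes that kept their sign, those that came nearest to 0 were *Tnfsf11* (0.01), *Atp6v1h* (0.11), *Adam12* (-0.12), *Itgb3* (-0.14) and *Ppp3ca* (0.17). The causes were not tested.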
